A study of Mus musculus with 13 samples.

Results

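The 7 genes described here encode a group of muscle transcription factors and their repressors: the MEF2 factor genes Mef2a, Mef2c and Mef2d, and the class IIa histone deacetylase genes Hdac4, Hdac5, Hdac7 and Hdac9. They were chosen by symbol for their known roles, with earlier results of these data known. The count table held 23366 genes of mouse RNA-seq libraries, and all 7 were among the 16537 genes with enough counts to be tested. The cells were primary myoblasts of mixed strain, grown from the hind limb muscle of pups aged 2 to 3 days, and myotubes, which were such myoblasts after 24 hours in medium with 1% horse serum in place of growth medium with 10% calf serum and fibroblast growth factor. Either stage was wild type, or dICR/dICR, in which both copies lack the imprinting control region of the Igf2 and H19 locus. There were 4 wild-type myoblast, 5 wild-type myotube, 2 dICR/dICR myoblast and 2 dICR/dICR myotube libraries. The labels do not say whether libraries of a group came from separate pups or cultures, so p-values measure only the spread between these samples, which may be technical.

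MEF2 proteins bind an A/T-rich motif in the control regions of many muscle genes and work together with MyoD and myogenin, the basic helix-loop-helix factors of the muscle lineage, which bind E-boxes. Class IIa deacetylases have little enzymatic activity of their own; they bind MEF2 on DNA and bring in a corepressor complex that contains HDAC3. Calcium-dependent kinases, protein kinase D and related kinases phosphorylate class IIa deacetylases, which are then held by 14-3-3 proteins and exported from the nucleus, while p38 and ERK5 kinases act on MEF2 itself. The series asks what the deletion, which disturbs the imprinted expression of both H19 and Igf2, does in muscle cells, and the comparisons are differentiation within each genotype, genotype within each stage, and the difference between the differentiation changes.

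Library totals ranged from 5.31 to 56.44 M counts (M, mega) and fell in 2 sets, 7 deep libraries above 20 M and 6 shallow ones below it. Both dICR/dICR myoblasts were shallow and both dICR/dICR myotubes deep; wild-type myoblasts 1 and 2 and myotubes 1 to 3 were deep and the other 4 wild-type libraries shallow. This split was made from the totals and is not named in the labels. Whether it follows a part of the study's design, such as the sequencing platform, is not known here. Small nucleolar RNA genes took 0.028 to 0.177% of counts in deep and 2.81 to 7.18% in shallow libraries, and the labels describe both Illumina and SOLiD sequencing without saying which library was run on which. Genotype labels were checked with H19, at 2340 to 40500 CPM (counts at a common library total, after scaling for composition) in the 9 wild-type libraries and 52.4 to 71.5 CPM in the 4 dICR/dICR ones. The Y-linked gene Ddx3y did not exceed 0.462 CPM in any shallow wild-type library (lowest 0.153) and was at 14.5 to 176 CPM in the other 9. Among cell type markers, the summed level of 7 differentiated-muscle genes was 1890 to 9670 CPM in wild-type myoblasts, 19300 to 35300 CPM in wild-type myotubes, 1340 and 2510 CPM in dICR/dICR myoblasts and 7870 and 14000 CPM in dICR/dICR myotubes. Summed markers of endothelium, macrophages, Schwann cells, adipocytes and erythroid cells each stayed at or under 10.2 CPM in all 13 libraries. Those of fibroblasts ranged from 105 to 897 CPM, and those of smooth muscle and pericytes from 1.45 to 86 CPM. In these bulk samples, fewer differentiated cells and less RNA per cell cannot be told apart.

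Promoter windows of all 7 genes were matched in RefSeq (build GRCm38.p6), 13 windows in all, each from 250 bases before to 50 bases after a transcript start. Windows of 3 genes are printed because their sequence bears on the regulation described above: Mef2a and Hdac5 hold the MEF2 motif within the window, and Hdac9, itself known as a MEF2 target gene, holds 2 E-boxes and no MEF2 motif in the window shown. The windows lie on the minus strand at chr7:67372809-67373108 (Mef2a), chr11:102230123-102230422 (Hdac5) and chr12:34917046-34917345 (Hdac9), and capitals mark the MEF2 motif and the E-box CANNTG.
Mef2a: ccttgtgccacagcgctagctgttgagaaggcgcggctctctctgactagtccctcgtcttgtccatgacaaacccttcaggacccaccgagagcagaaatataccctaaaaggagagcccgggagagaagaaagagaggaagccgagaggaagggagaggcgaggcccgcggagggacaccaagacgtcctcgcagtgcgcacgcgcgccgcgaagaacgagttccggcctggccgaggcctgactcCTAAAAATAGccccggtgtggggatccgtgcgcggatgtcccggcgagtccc
Hdac5: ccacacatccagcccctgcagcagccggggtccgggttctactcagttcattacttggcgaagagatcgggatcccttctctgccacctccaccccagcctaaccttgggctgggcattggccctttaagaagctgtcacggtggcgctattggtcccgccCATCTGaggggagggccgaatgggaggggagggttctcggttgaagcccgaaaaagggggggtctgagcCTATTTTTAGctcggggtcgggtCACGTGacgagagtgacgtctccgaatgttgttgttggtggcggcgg
Hdac9: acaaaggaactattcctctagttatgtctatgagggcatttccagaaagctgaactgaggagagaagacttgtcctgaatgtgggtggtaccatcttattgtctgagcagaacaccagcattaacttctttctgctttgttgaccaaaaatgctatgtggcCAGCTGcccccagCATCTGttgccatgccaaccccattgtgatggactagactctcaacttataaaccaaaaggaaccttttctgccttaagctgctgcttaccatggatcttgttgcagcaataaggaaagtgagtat
In Mef2a the motif CTAAAAATAG began at position -2 from the transcript start, and in Hdac5 CTATTTTTAG began at -20. The MEF2 motif was searched as YTAWWWWTAR, where Y is C or T, W is A or T and R is A or G, with full matches only. This pattern reads the same on both strands, so each window was searched as given. It was present in 2 of the 13 windows, against 3.19% of the 32851 RefSeq promoter windows of the same length. Hdac9 had the E-boxes CAGCTG at -89 and CATCTG at -76 in the window shown. Its other window, chr12:34528840-34529139, held 3 E-boxes and no full match to the MEF2 motif. A near match there, ctatttttgg, was not counted. An E-box was present in 7 of the 13 windows, from 4 of the 7 genes, and in 72.3% of all windows, and it too is the same on both strands. These matches describe the sequence only.

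Per kilobase of annotated exon, which allows genes to be compared, Mef2a and Mef2c stood at like levels in wild-type myoblasts, at 15.4 ± 8.02 and 15.2 ± 7.77 CPM per kb (mean ± SD, n = 4), and Mef2d at 4.04 ± 1. In wild-type myotubes the order was Mef2c at 82.1 ± 30.7, Mef2a at 48.9 ± 22.9 and Mef2d at 12.6 ± 6.85 CPM per kb (n = 5), and the Mef2c and Mef2a ranges, 53.9 to 133 and 27.4 to 76.3 CPM per kb, overlapped. Mef2c, the family member required for heart and muscle development, made up 40 to 47.4% of the summed MEF2 level per length in the 4 wild-type myoblasts. Its share was 41.3, 45.6 and 51.8% in the deep wild-type myotubes and 68.2 and 77.5% in the shallow ones, where Mef2a took 25 and 16%. The Mef2c share in dICR/dICR libraries was 46.4 and 52.7% in myoblasts and 42.5 and 48.1% in myotubes. Exon lengths come from the GENCODE M21 annotation and not from the authors' own annotation, so shares are approximate.

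Among the class IIa genes Hdac5 had the highest level per length in 12 of the 13 libraries, at 8.53 ± 2.23 CPM per kb in wild-type myoblasts (n = 4) and 13 ± 4.21 in wild-type myotubes (n = 5). The exception was wild-type myoblast 2, where Hdac7 took 47.1% of the class IIa total and Hdac5 41.9%. Hdac9 was the lowest of the 4 in every myoblast library, at 0.6 ± 0.212 CPM per kb in wild type. Its share of the class IIa total was 2.36 to 5.07% in wild-type myoblasts and 11 to 26.6% in wild-type myotubes, where it stood above Hdac4 in 5 of 5 libraries. In dICR/dICR the Hdac9 share was 2.05 and 3.84% in myoblasts and 7.52 and 9.2% in myotubes, with Hdac4 at 6.8 and 10.9% in those myotubes. The ratio of summed class IIa to summed MEF2 level per length was 0.317 to 0.804 in wild-type myoblasts. In wild-type myotubes it was 0.109 to 0.176, without overlap. The wild-type myoblast ratio differed by depth set, at 0.64 and 0.804 in deep and 0.327 and 0.317 in shallow libraries. The dICR/dICR myoblasts, both shallow, had 0.496 and 1.01, above the shallow wild-type myoblasts. The dICR/dICR myotubes, both deep, had 0.29 and 0.242, above the wild-type myotube range. These shares and ratios were not tested.

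**Figure D1:**
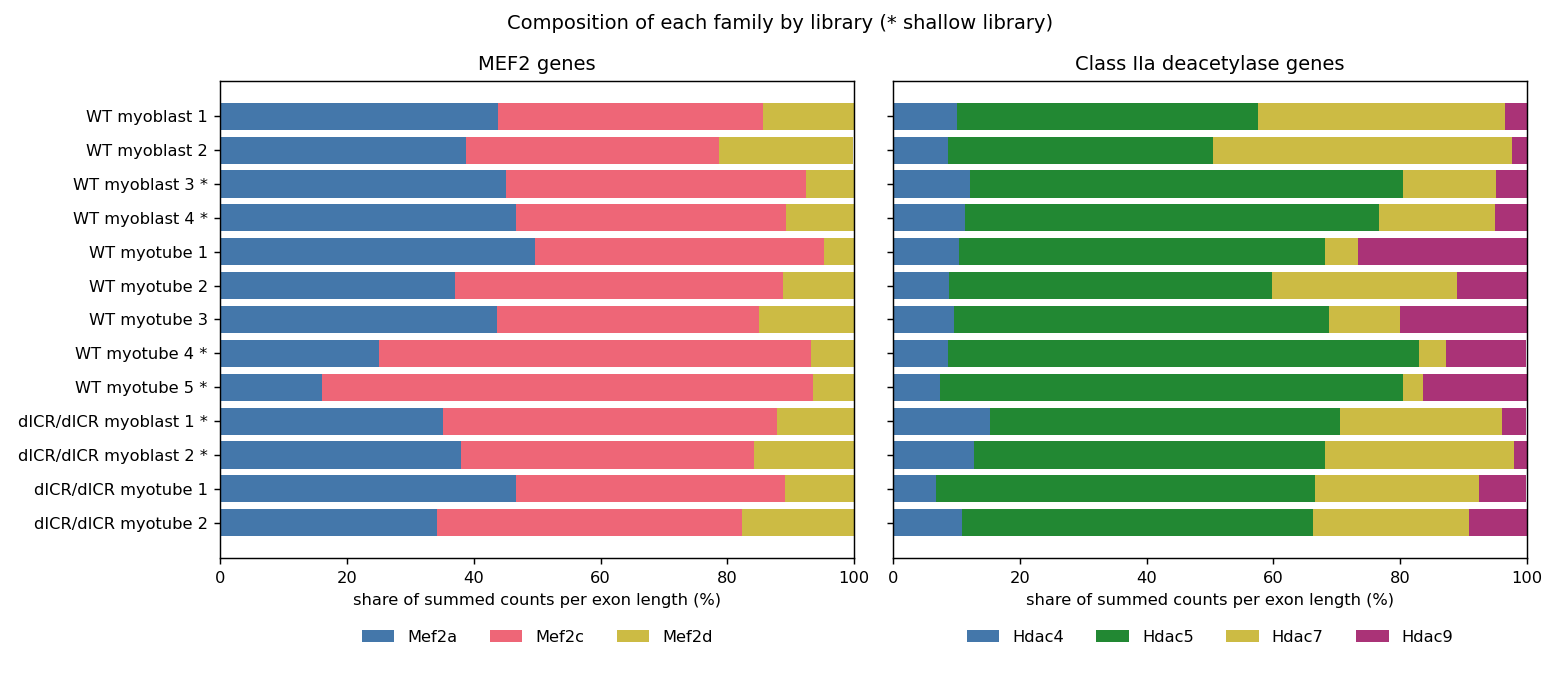
Share (%) of each gene in the summed counts per exon length of its family, 1 bar per library, MEF2 genes on the left and class IIa deacetylase genes on the right; an asterisk marks shallow libraries. The Hdac9 segment is wider in the wild-type myotubes (11 to 26.6%) than in the wild-type myoblasts (2.36 to 5.07%), and the Mef2c segment is widest in the shallow wild-type myotubes (68.2 and 77.5%).

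Differentiation of wild-type cells was compared first. All 3 MEF2 genes and Hdac9 rose in myotubes, by 1.64 to 2.53 on the log2 scale, whereas Hdac4, Hdac5 and Hdac7 did not pass the test over all 13 libraries. Thus 4 of the 7 genes were called, all higher, where 8.86% of the tested genes were called higher and 10.2% lower (edgeR quasi-likelihood, Benjamini-Hochberg adjusted p under 0.05). The median log2 fold change was 1.64 over the 7 genes and 0.02 over all tested genes. The same 4 genes were higher in each of the 5 wild-type myotubes than in each of the 4 wild-type myoblasts, which held for 9.07% of tested genes.

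Mef2c had 139, 127, 352 and 336 CPM in wild-type myoblasts 1 to 4 and at 1100, 847, 1060, 1350 and 2090 CPM in myotubes 1 to 5. No myotube fell within 2-fold of the highest myoblast, and the shallow libraries were the higher ones in both stages. Its log2 fold change was 2.44 ± 0.44 (SE, adjusted p = 0.00365, edgeR), with 2.91 ± 0.38 among deep libraries (adjusted p = 0.000318) and 2.32 ± 0.38 among shallow ones (adjusted p = 0.00753).

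Mef2a is a broadly expressed member of the family. Its 4 myoblast values were 135, 115, 313 and 342 CPM and its 5 myotube values 1120, 565, 1040, 463 and 402 CPM. The groups did not overlap, but shallow myoblasts were the high ones of their group and shallow myotubes the low ones of theirs. Over all libraries Mef2a rose by 1.67 ± 0.43 (adjusted p = 0.0199, edgeR), a call lost without wild-type myoblast 1 (log2 fold change 1.47, adjusted p = 0.0628) or myoblast 2 (1.43, adjusted p = 0.0594). Within the deep set it rose by 2.86 ± 0.33 (adjusted p = 0.00017), and within the shallow set the value was 0.40 ± 0.33 (adjusted p = 0.503). The difference between these 2 changes, 2.46 ± 0.45, passed the test over all genes (adjusted p = 0.0451, edgeR), as it did for 0.435% of tested genes and for none of the other 6 members, whose values lay between -0.13 and 0.87. Reads of Mef2a and of Lysmd4, which overlaps it on the opposite strand, may not be separable, since whether the counting used strand is not known here.

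Mef2d, the third family member, had myoblast values of 18.1, 25.6, 21.2 and 31.9 CPM in wild type and myotube values of 42.9, 70.1, 146, 51.7 and 66.4 CPM. Myotube 3 was the highest by more than 2-fold over the next, and no value of one stage reached into the other. The log2 fold change was 1.64 ± 0.40 (adjusted p = 0.0144, edgeR) and 1.27 without myotube 3. It was 1.98 ± 0.53 in the deep set (adjusted p = 0.016) and 1.15 ± 0.56 in the shallow set (adjusted p = 0.231), where it did not pass. When each set was fitted alone both calls turned, with 2.01 ± 0.62 (adjusted p = 0.0544) in the deep and 1.18 ± 0.27 (adjusted p = 0.019) in the shallow set. The overlapping opposite-strand gene 1700113A16Rik makes this count uncertain too.

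Hdac9, whose transcripts include a short form that lacks the deacetylase domain, was the member with the largest fitted change over all libraries, with Mef2c within its SE; in the shallow set the Mef2c value was the larger. The 4 wild-type myoblasts held 6.69, 5.62, 11.1 and 11.8 CPM and the 5 myotubes 65.4, 29.6, 55, 39.7 and 62.1 CPM, and the lowest myotube was above the highest myoblast. Hdac9 rose by 2.53 ± 0.34 over all libraries (adjusted p = 0.000987, edgeR), by 3.02 ± 0.41 in the deep set (adjusted p = 0.000391) and by 2.15 ± 0.42 in the shallow set (adjusted p = 0.0143). Gene counts do not separate its short and long transcripts.

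Hdac5, a target of calcium-dependent kinases in muscle, had wild-type myoblast levels of 56.2, 59.7, 92.6 and 91 CPM and myotube levels of 85, 82.3, 97.1, 140 and 166 CPM. Shallow myoblasts overlapped deep myotubes, so the stages separated only when each set was read by itself. Over all libraries the log2 fold change of 0.61 ± 0.26 did not pass (adjusted p = 0.12, edgeR). Within each set Hdac5 rose, by 0.60 ± 0.18 (deep, adjusted p = 0.028) and 0.73 ± 0.20 (shallow, adjusted p = 0.0475), and it rose by 0.66 with the depth set as a term (adjusted p = 0.00293). The deep call was lost when the deep libraries were fitted alone (0.64 ± 0.21, adjusted p = 0.0644), and the shallow one was kept when the shallow libraries were (0.76 ± 0.17, adjusted p = 0.0181).

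Hdac7 pointed down in wild type. Its values were 35.5, 51.6, 15.4 and 19.6 CPM in myoblasts and 5.94, 36.2, 14.3, 6.31 and 5.5 CPM in myotubes, so that 4 of 5 myotubes were below all myoblasts and myotube 2 was among the higher myoblasts. The log2 fold change was -1.15 ± 0.56 (adjusted p = 0.175, edgeR), -1.21 ± 0.53 in the deep set (adjusted p = 0.103) and -1.56 ± 0.65 in the shallow set (adjusted p = 0.164). With the shallow libraries fitted alone Hdac7 fell by 1.54 ± 0.30 (adjusted p = 0.00974). Without myotube 2 Hdac7 fell by 1.88 ± 0.42 (adjusted p = 0.00895), and when the set entered as a term it fell by 1.36 (adjusted p = 0.0212), a fit in which 6 of the 7 members and 31.8% of all genes were called. Myotube 2 also had the highest summed level of 8 fibroblast markers, 897 CPM against 183 to 344 CPM in the other wild-type myotubes, and of 6 smooth muscle and pericyte markers, 86 CPM against 1.45 to 55.6 CPM; their part in its Hdac7 level was not tested. Hdac7 is known for its role in endothelium and thymocytes, and summed endothelial markers in myotube 2 were 2.17 CPM. Slc48a1 overlaps Hdac7 on the opposite strand.

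Hdac4 varied least. It was at 21.6 to 29.5 CPM in wild-type myoblasts and 25.4 to 30.4 CPM in wild-type myotubes, with a log2 fold change of 0.15 ± 0.22 (edgeR adjusted p = 0.695) that turned to -0.14 when libraries were scaled by their totals alone. Its values within the sets were 0.31 ± 0.28 (deep) and 0.04 ± 0.31 (shallow).

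**Figure D2:**
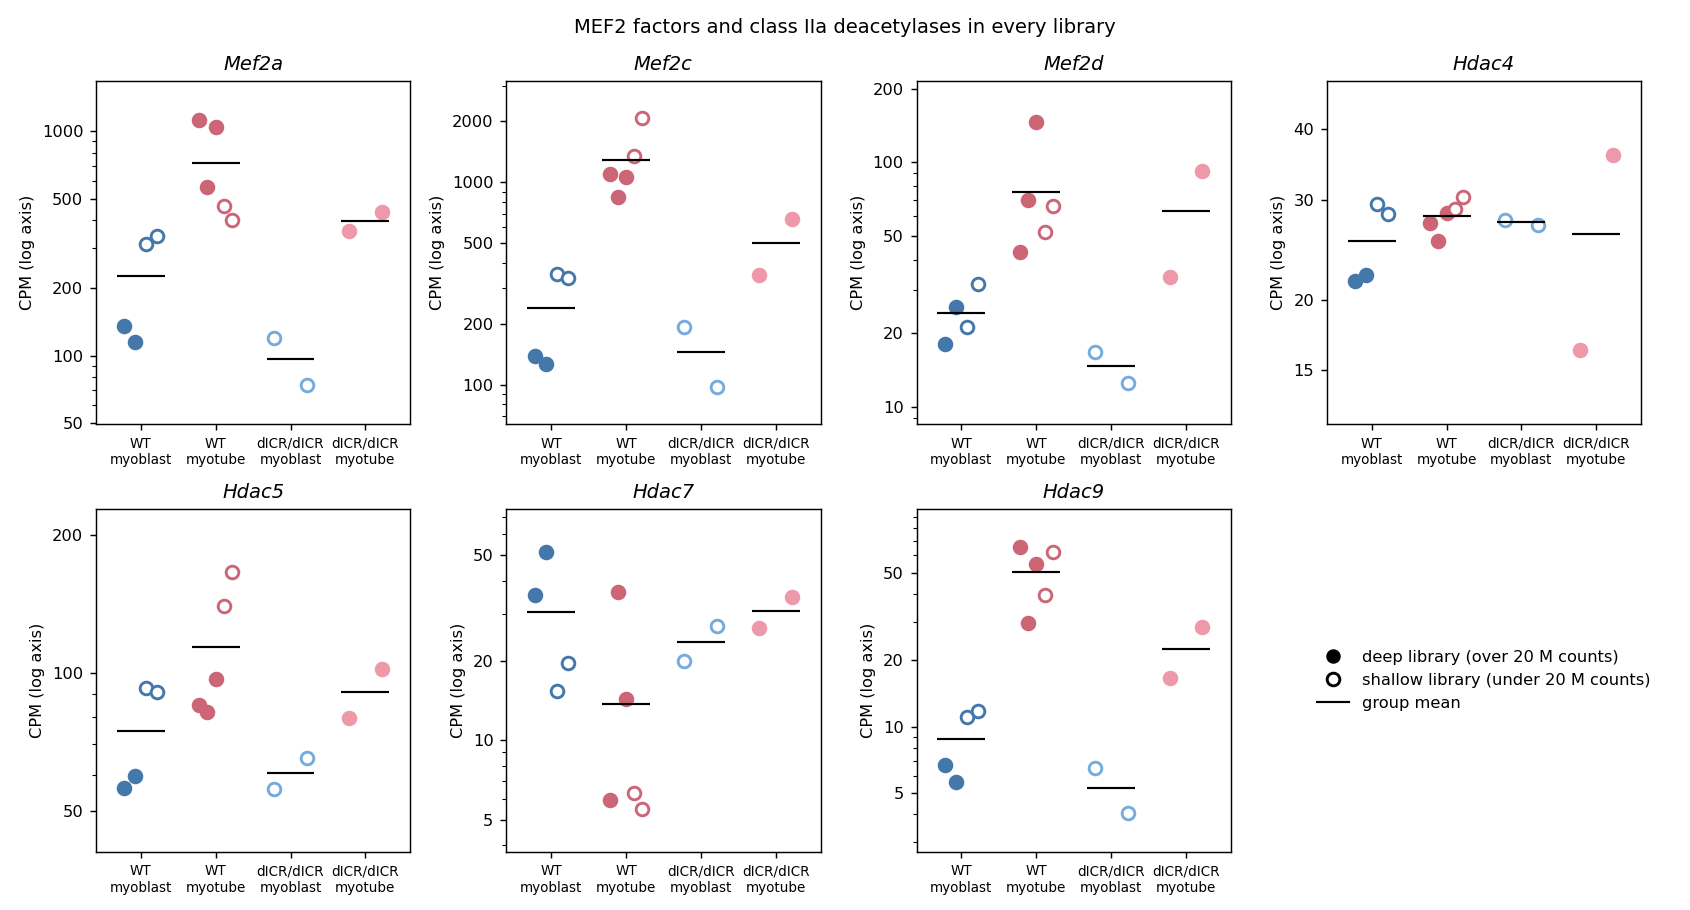
Level of each of the 7 genes in every library (CPM, log axis) by group, with filled points for deep and open points for shallow libraries and a line at the group mean. The 5 wild-type myotubes lie above the 4 wild-type myoblasts for Mef2a, Mef2c, Mef2d and Hdac9, while for Hdac7 wild-type myotube 2 (36.2 CPM) lies apart from the other 4 (5.5 to 14.3 CPM).

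Within the deep set 5 of the 7 genes were called, all higher, where 14.3% of tested genes were called higher, and within the shallow set 3 of 7 were called, all higher, where 3.72% were. These fits took the spread from all 13 libraries. With each set fitted alone the order of the sets turned: 3 of 7 were called in the deep set (Mef2a, Mef2c and Hdac9), all higher, where 11.6% of genes were called higher. In the shallow set 5 of 7 were called, 4 higher (Mef2c, Mef2d, Hdac5 and Hdac9) and Hdac7 lower, where 11.2% of genes were called higher and 11.4% lower. Levels also differed between the sets within a stage. In wild-type myoblasts, Mef2a (1.39 ± 0.33, adjusted p = 0.0123), Mef2c (1.37 ± 0.37, adjusted p = 0.0224) and Hdac5 (0.66 ± 0.20, adjusted p = 0.033) were higher in shallow than in deep libraries by edgeR, in a comparison that called 10.1% of genes higher. In wild-type myotubes Hdac5 was again higher in shallow libraries (0.79 ± 0.18, adjusted p = 0.0119) while Mef2a was lower (-1.07 ± 0.31, adjusted p = 0.0402), with 13.3% of genes called. In wild-type myoblasts the summed differentiated-muscle markers moved with this split, at 1900 and 1890 CPM (deep) and 9050 and 9670 CPM (shallow). Their wild-type myotube values overlapped between the sets, at 27200, 19300 and 27400 CPM (deep) and 24700 and 35300 CPM (shallow). The part of these markers in the differences was not tested. Ddx3y also goes with this split in wild type, so depth set and pup sex cannot be told apart in it.

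Differentiation of dICR/dICR cells compared 2 shallow myoblasts with 2 deep myotubes, so depth set and stage cannot be told apart there. None of the 7 genes was called, against 0.115% of tested genes called higher and 0.0302% lower by edgeR; 4 had an unadjusted p under 0.05. DESeq2 called 3 members (Mef2a, Mef2d and Hdac9), all higher, with 3.83% of genes called higher, and limma voom 0 with 0.593% called in either direction. Mef2d stood at 16.8 and 12.5 CPM in myoblasts and 34 and 91.8 CPM in myotubes, a log2 fold change of 2.10 ± 0.59 (adjusted p = 0.123). Hdac9 was at 6.49 and 4.04 CPM in myoblasts and 16.7 and 28.3 CPM in myotubes, 2.09 ± 0.49 (adjusted p = 0.0767). These were the members nearest to the threshold, and the 2 myotube libraries differed from each other by more than the myoblasts did.

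Mef2a was at 120 and 73.8 CPM in dICR/dICR myoblasts and 358 and 435 CPM in myotubes, a log2 fold change of 2.03 ± 0.64 (edgeR adjusted p = 0.151). Mef2c was at 192 and 96.7 CPM and then at 350 and 655 CPM, 1.80 ± 0.62 (adjusted p = 0.181). Both MEF2 genes, like Mef2d, Hdac5 and Hdac9, were higher in each myotube than in each myoblast. That makes 5 of 7, where 30% of tested genes lay higher without overlap in this comparison of 2 with 2. The other class IIa genes had log2 fold changes of 0.58 ± 0.38 (Hdac5, 56 and 65.3 then 79.7 and 102 CPM), 0.39 ± 0.84 (Hdac7, 19.9 and 27.1 then 26.6 and 34.9 CPM) and -0.07 ± 0.32 (Hdac4, 27.7 and 27.1 then 16.3 and 36 CPM).

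A fit that carried the depth set as an extra term, with its size estimated from wild type, was also made. In wild type the depth set goes with Ddx3y, which was at most 0.462 CPM in the shallow libraries, whereas the shallow dICR/dICR myoblasts had 14.5 and 63.1 CPM, so depth and pup sex cannot be told apart in that term. In it Mef2c (2.85 ± 0.47, adjusted p = 0.00661), Hdac5 (1.32 ± 0.24, adjusted p = 0.0088) and Hdac9 (2.49 ± 0.53, adjusted p = 0.017) rose in dICR/dICR by edgeR, so that 3 members were called higher, where 4.8% of genes were. Without the 4 shallow wild-type libraries 3 members were called higher as well, Mef2a (2.00 ± 0.38), Mef2c (1.77 ± 0.40) and Hdac9 (2.06 ± 0.45), where 8.53% of genes were. With the depth set as a term Hdac7 turned to -1.11 ± 0.71 (edgeR adjusted p = 0.36). Without the 4 shallow wild-type libraries it stayed positive, at 0.36 ± 0.66 (adjusted p = 0.768).

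Genotype was then compared within each stage. In myoblasts, 0 of the 7 genes were called over all 13 libraries, where 0.0181% of tested genes were called higher and 0.0121% lower by edgeR; none of the 7 had an unadjusted p under 0.05. DESeq2 and limma voom also called 0, with 3.42% and 0.0544% of genes called. The median was -0.72 over the 7 genes and -0.06 over all. The values were -1.22 ± 0.56 for Mef2a, -0.72 ± 0.54 for Mef2c, -0.72 ± 0.51 for Mef2d and -0.72 ± 0.43 for Hdac9. Mef2d was the member that was lower in both dICR/dICR myoblasts (16.8 and 12.5 CPM) than in all 4 wild-type ones (18.1 to 31.9 CPM), as were 14.3% of tested genes.

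Against wild-type myoblasts 3 and 4, which are shallow like the dICR/dICR myoblasts, Mef2a fell. It was at 120 and 73.8 CPM in dICR/dICR and at 313 and 342 CPM in those wild-type libraries, a log2 fold change of -1.75 ± 0.34 (edgeR adjusted p = 0.0158), with 3.31% of tested genes called lower. Mef2c (-1.25 ± 0.37, adjusted p = 0.0754), Hdac9 (-1.10 ± 0.43, adjusted p = 0.153), Mef2d (-0.85 ± 0.56) and Hdac5 (-0.60 ± 0.20, adjusted p = 0.102) did not pass, and Hdac7 and Hdac4 were at 0.42 ± 0.60 and -0.08 ± 0.31. When the spread was taken from the 6 shallow libraries alone, 4 of the 7 were called lower (Mef2a, Mef2c, Hdac5 and Hdac9), where 10.3% of genes were. Without the 4 shallow wild-type libraries, which sets the dICR/dICR myoblasts against the deep wild-type ones, the Mef2a value was -0.33 ± 0.37 (adjusted p = 0.629) and not called. Mef2d (-0.53) and Hdac9 (-0.17) kept their sign there, while Mef2c (0.16), Hdac5 (0.11), Hdac4 (0.37) and Hdac7 (-0.85) had the opposite one. In the shallow set genotype coincides with Ddx3y, which was at 0.247 and 0.153 CPM in wild type and 14.5 and 63.1 CPM in dICR/dICR, and the sex of the pups and genotype cannot be told apart there. Summed differentiated-muscle markers were 9050 and 9670 CPM in wild type and 2510 and 1340 CPM in dICR/dICR in the same comparison, and their part in the Mef2a difference was not tested.

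In myotubes, too, 0 of the 7 genes were called over all libraries, where 0.333% of tested genes were called higher and 0.224% lower by edgeR; 2 of the 7 had an unadjusted p under 0.05, and DESeq2 and limma voom called 0, with 7.39% and 2.66% of genes called. Mef2c was at 350 and 655 CPM in dICR/dICR myotubes, below each of the 5 wild-type values of 847 to 2090 CPM, and Hdac9 was at 16.7 and 28.3 CPM, below each wild-type value of 29.6 to 65.4 CPM. These were the 2 members without overlap, both lower, where 8.76% of genes were lower without overlap. The log2 fold changes were -1.36 ± 0.54 for Mef2c (adjusted p = 0.243) and -1.16 ± 0.41 for Hdac9 (adjusted p = 0.198).

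Among the deep libraries, 2 dICR/dICR and 3 wild-type myotubes, 0 of 7 were called as well, against 3.63% of genes. Mef2a came nearest, at 358 and 435 CPM against 1120, 565 and 1040 CPM, a log2 fold change of -1.19 ± 0.31 (edgeR adjusted p = 0.0561). The Mef2c and Hdac9 values there were -0.99 ± 0.34 (adjusted p = 0.13) and -1.15 ± 0.37 (adjusted p = 0.107), and Mef2d (-0.46 ± 0.50), Hdac4 (-0.05 ± 0.28) and Hdac5 (0.04 ± 0.18) lay nearer to 0. The summed differentiated-muscle markers were again lower in dICR/dICR, at 7870 and 14000 CPM against 19300 to 27400 CPM in the deep wild-type myotubes, and their part was not tested.

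Over all 13 libraries Hdac7 was the member with a positive value by genotype in myotubes. It stood at 26.6 and 34.9 CPM in dICR/dICR and, as given above, at 36.2 CPM in wild-type myotube 2 and 5.5 to 14.3 CPM in the other 4. The log2 fold change was 1.15 ± 0.67 (adjusted p = 0.395, edgeR). Among deep libraries, where depth is alike, it was 0.71 ± 0.53 (adjusted p = 0.468), and it was 0.76 with the depth set as a term. Without wild-type myotube 2 it was 1.88 ± 0.48 and passed (adjusted p = 0.0425), in a fit that called 4.59% of genes higher.

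The difference between the 2 differentiation changes (dICR/dICR minus wild type) was called for 0 of 7 members and 0% of the tested genes by edgeR, with 1643 genes but no member at an unadjusted p under 0.05; DESeq2 and limma voom called no member, and 0.531% and 0% of genes. The largest values were 1.54 ± 1.01 for Hdac7 and -0.64 ± 0.72 for Mef2c. Mef2a, Mef2d, Hdac9, Hdac4 and Hdac5 were at 0.37 ± 0.74, 0.45 ± 0.68, -0.45 ± 0.57, -0.21 ± 0.39 and -0.03 ± 0.46. Each of these values lay within 2 SE of 0.

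**Figure D3:**
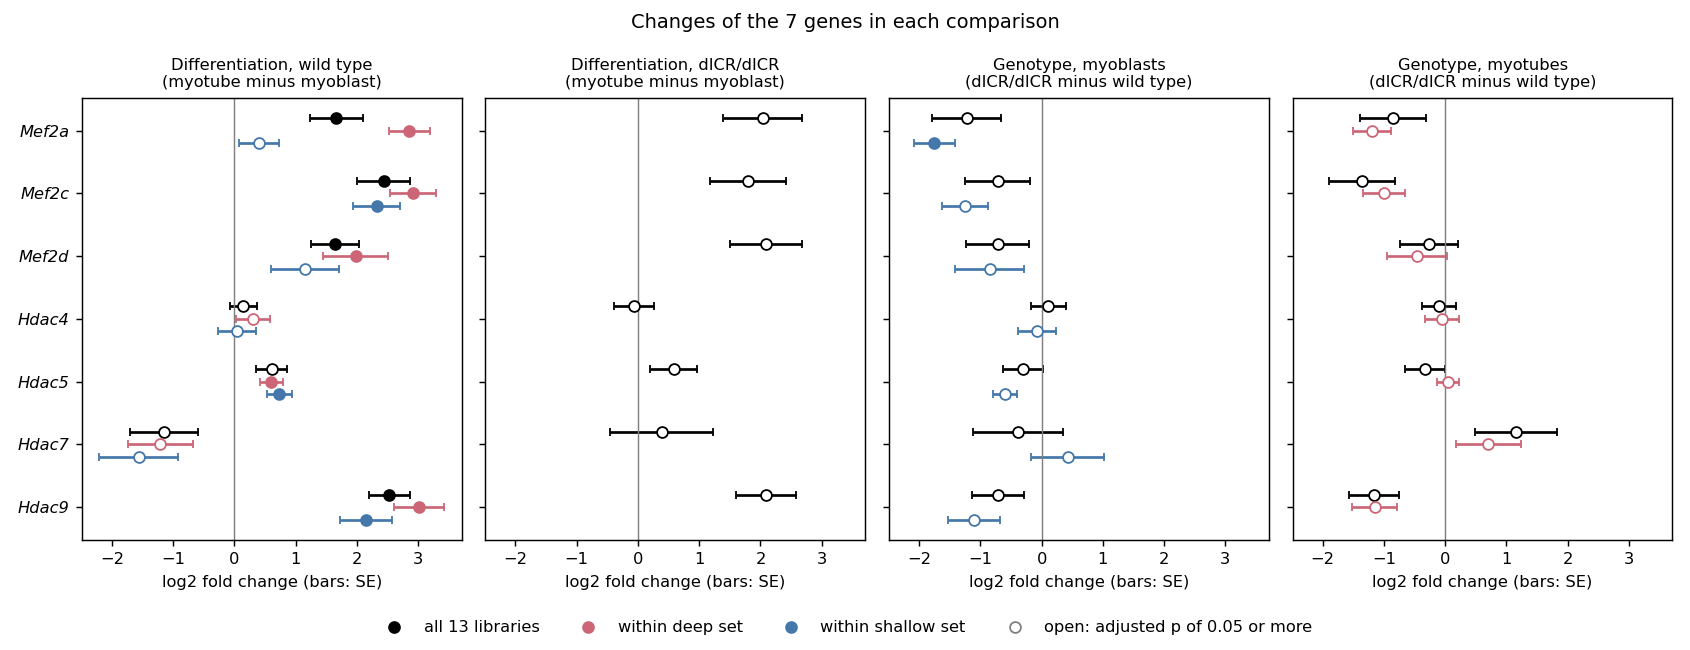
Log2 fold change (bars, SE) of each gene in 4 comparisons, over all 13 libraries (black), within the deep set (red) and within the shallow set (blue); filled points have an adjusted p under 0.05. In wild-type differentiation the Mef2a points of the 2 sets lie apart (2.86 and 0.40), and in the genotype comparisons the 1 filled point is Mef2a within the shallow set (-1.75).

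The other genes of the pathway were taken from 6 lists, written from textbook knowledge with earlier results of these data known. Of 17 known MEF2-dependent genes, 8 rose in wild-type myotubes and 0 fell, where 8.86% of all tested genes were called higher and 10.2% lower. The 17 had a median log2 fold change of 1.91, against 0.02 over all tested genes. The largest were Myom2, which encodes an M-band protein (2.93 ± 0.51, adjusted p = 0.00332, edgeR), the myogenin gene Myog (2.63 ± 0.69, adjusted p = 0.0205) and Slc2a4, the insulin-responsive glucose transporter gene (2.56 ± 0.81, adjusted p = 0.0439). Myog was at 146, 142, 1180 and 1200 CPM in myoblasts and 2500 to 6410 CPM in myotubes, so it had the same split between deep and shallow myoblasts as Mef2a and Mef2c. Within the deep set 14 of the 17 rose, where 14.3% of all genes did, and within the shallow set 8 did, where 3.72% did, with 0 lower in either. The differentiated-muscle markers moved with them, with 3 of 7 higher over all libraries, 7 of 7 in the deep and 5 of 7 in the shallow set. Myog and Ckm are on both lists, so the counts of the lists are not independent. The signal-induced genes of the list, Jun (-0.30 ± 0.29) and Nr4a1 (0.25 ± 0.49), did not pass over all libraries.

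Of 33 kinases, phosphatases and their regulators, 4 rose and 6 fell in wild-type differentiation, where 8.86% of all tested genes were called higher and 10.2% lower. The risers with the largest values were Camk2a, the gene of a calcium/calmodulin-dependent kinase that phosphorylates class IIa deacetylases (2.29 ± 0.37, adjusted p = 0.00212, edgeR), Prkaa2, the muscle AMP-activated kinase catalytic subunit gene (1.86 ± 0.49, adjusted p = 0.0218), and Sik1, a salt-inducible kinase gene (1.79 ± 0.43, adjusted p = 0.0147). Camk2a was at 5.59 to 11.5 CPM in the 4 myoblasts and 20.3 to 58.1 CPM in the 5 myotubes. Those that fell most were Map2k6, a kinase upstream of p38 (-2.84 ± 0.65, adjusted p = 0.0114), the p38 delta gene Mapk13 (-2.49 ± 0.77, adjusted p = 0.0401) and Camkk1, which activates other calcium/calmodulin-dependent kinases (-1.69 ± 0.29, adjusted p = 0.00322). All 3 were at low levels, with Map2k6 at 2.3 to 6.23 CPM in myoblasts and 0.144 to 1.63 CPM in myotubes. Of the 10 called in this list, Camk2a and Camkk1 also passed within the shallow set, at 2.08 ± 0.45 and -2.05 ± 0.39.

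Corepressor, 14-3-3 and export partners gave 2 of 18 higher, against 8.86% of all genes, and 0 lower: Tbl1xr1, a subunit of the corepressor complex (1.38 ± 0.23, adjusted p = 0.00278, edgeR), and Dnajb5, a chaperone gene whose protein binds class IIa deacetylases (0.72 ± 0.21, adjusted p = 0.0332). The MEF2 coactivators gave 2 of 11 higher, against the same 8.86%, and 0 lower: Nfatc2, the calcium-responsive partner of MEF2 (2.74 ± 0.70, adjusted p = 0.0189), and Ncoa2, a nuclear receptor coactivator gene (1.62 ± 0.32, adjusted p = 0.00572). Nfatc2 was scarce, at 0.28 to 1.6 CPM in wild-type myoblasts and 1.49 to 11 CPM in myotubes, and these ranges overlapped. Over all libraries none of 14 other deacetylase genes (median -0.25) was called, nor were Srf and Mef2b. Within the deep set 2 of the 14 were higher and 1 lower, and within the shallow set 0. The corepressor list had 3 higher and 3 lower (deep) and 0 and 1 (shallow), and the coactivators 3 higher (deep) and 0 (shallow). Of all genes 14.3% were called higher and 14.7% lower in the deep set, and 3.72% and 3.25% in the shallow set. Mef2b, the fourth MEF2 gene, was at or under 0.642 CPM in all 13 libraries. Hdac3, the deacetylase of the corepressor complex, had a log2 fold change of -0.39 ± 0.18 (adjusted p = 0.148). Hdac1 was at 24.2 to 118 CPM in deep and 3.54 to 6.89 CPM in shallow libraries, so its level followed the depth set.

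**Figure D4:**
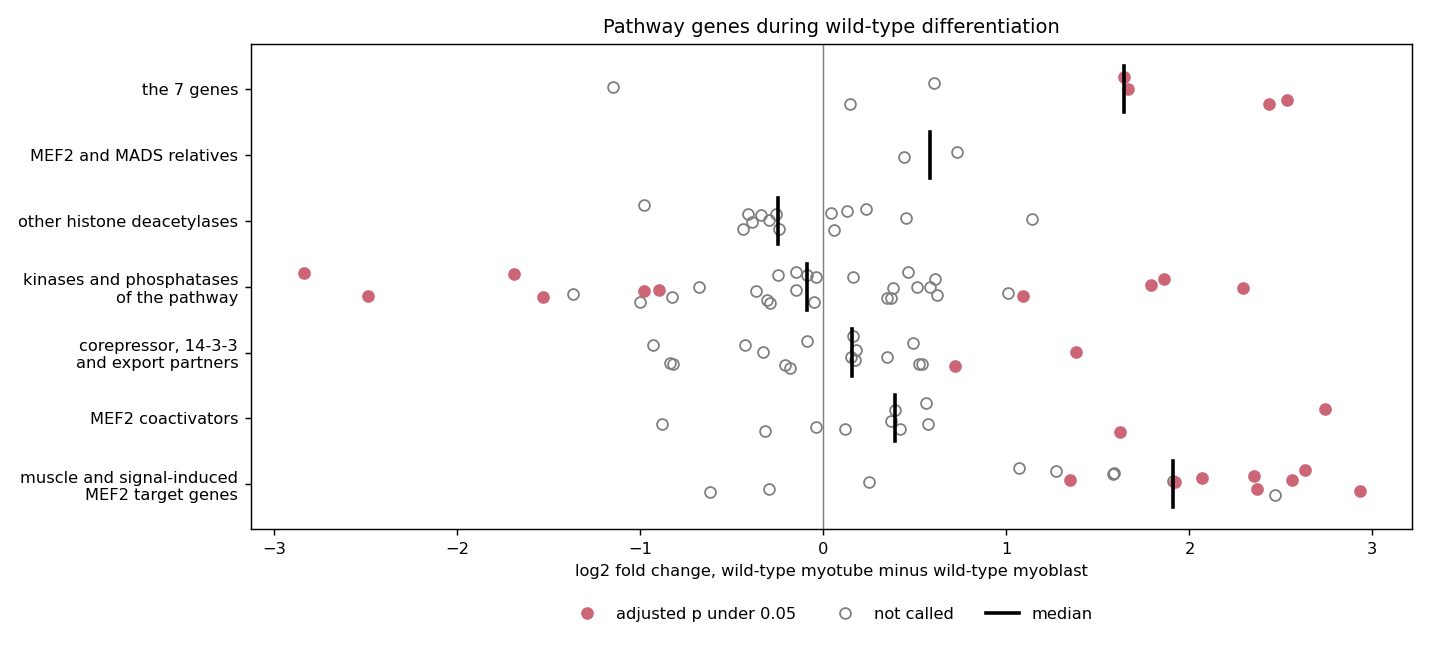
Log2 fold change of each tested gene in wild-type differentiation over all 13 libraries, by list, with filled points for an adjusted p under 0.05 and a black line at each median. The MEF2 target list has its median at 1.91 with 8 of 17 genes filled, all higher, while the kinase and phosphatase list has filled points on both sides (4 higher and 6 lower). Of all tested genes 8.86% were called higher and 10.2% lower.

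No gene of the 6 lists was called over all libraries in dICR/dICR differentiation, in the genotype comparison of myoblasts or in the difference between the changes. The MEF2 targets had a median of 1.71 in dICR/dICR differentiation, -0.9 for genotype in myoblasts and -1.1 for genotype in myotubes, beside medians of all genes at 0, -0.06 and -0.06. In myotubes 1 list gene was called by genotype, Camk1d, a calcium/calmodulin-dependent kinase gene. It was at 17.1 and 6.37 CPM in dICR/dICR myotubes and 1.43 to 2 CPM in the 5 wild-type ones, a log2 fold change of 2.74 ± 0.41 (edgeR adjusted p = 0.0181), and 2.72 ± 0.47 within the deep set (adjusted p = 0.0126). Camk1d was also above the wild-type range in dICR/dICR myoblasts (7.66 and 20.7 CPM against 3.07 to 4.19 CPM), where its value of 2.01 ± 0.43 did not pass (adjusted p = 0.114). Within the deep set 2 further kinase genes were higher in dICR/dICR myotubes, Camkk1 (1.47 ± 0.32, adjusted p = 0.0318) and the p38 beta gene Mapk11 (1.58 ± 0.37, adjusted p = 0.0422), chosen here after their values were seen.

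Within the shallow set, where Mef2a fell in dICR/dICR myoblasts, 8 of the 17 MEF2 targets fell as well and 0 rose, with a median of -1.52, where 3.31% of all tested genes were called lower. All 7 differentiated-muscle markers fell too, with a median of -2.53, and Myog and Ckm are on both lists; their part in the targets' values was not tested. The 8 targets that fell were Myog, Ckm, Smyd1, Srpk3, Pgam2, Xirp2, Stac3 and Lmod3, chosen here after their values were seen. The muscle creatine kinase gene Ckm was at 65.4 and 72.9 CPM in wild type and at 5.71 and 6.12 CPM in dICR/dICR, a log2 fold change of -3.55 ± 0.48 (edgeR adjusted p = 0.0049). For Myog the values were 1180 and 1200 CPM against 402 and 151 CPM, -2.10 ± 0.49 (adjusted p = 0.0333). The deep wild-type myoblasts held 2.65 and 2.08 CPM of Ckm and 146 and 142 CPM of Myog, so both genes were lower there than in dICR/dICR. Of the other list genes called there, Mapk11 (1.87 ± 0.44) and the sirtuin gene Sirt1 (0.92 ± 0.24) were higher in dICR/dICR, and Camk1g, Dnajb5 and the coactivator gene Vgll2 were lower, at -3.32 ± 0.69, -1.24 ± 0.31 and -3.20 ± 0.53.

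Across the 13 libraries the 4 genes that rose in wild type, and Hdac5 with them, had like patterns. Pearson's r of log2 CPM was 0.974 for Mef2c with Hdac9, 0.923 for Mef2a with Hdac9 and 0.866 for Mef2a with Mef2c, and over the 7 deep libraries these were 0.985, 0.995 and 0.978. Mef2d followed with 0.822 to 0.856 against Mef2a, Mef2c and Hdac9, and with 0.756 to 0.82 over the deep libraries. Hdac5, which was not called over all libraries, was as close to Mef2c (0.865) and nearly so to Hdac9 (0.777), with 0.649 for Mef2d and 0.615 for Mef2a; over the deep libraries its values with these 4 genes were 0.841 to 0.902. Hdac7 had negative values with all 6 other members, from -0.719 (Mef2c) to -0.282 (Mef2d), and Hdac4 had values of 0.481 or less with each. Over the deep libraries Hdac7 ranged from -0.791 (Mef2a) to -0.216 (Hdac4), and Hdac4 reached 0.671 (Mef2d). The libraries share group and depth set, so these are descriptions of the same stage difference and carry no test.

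The genes whose pattern was most like each member's, by Pearson's r over 13 libraries, were Cacna2d1, a calcium channel subunit gene, for Mef2c (0.993), followed by Myom2 (0.991) and Hhatl (0.99). Hdac9 was followed by Usp28, a deubiquitinase gene (0.991), Reep1 (0.988) and Zfp106 (0.987). For Mef2a they were the syntrophin gene Sntb1 (0.972), Mn1 (0.969) and Phka2 (0.966), and for Mef2d Dlgap4 (0.978), Nav2 (0.96) and Zhx2 (0.959). Hdac5 was nearest to Fyco1 (0.975), the muscle phosphofructokinase gene Pfkm (0.968) and Txlnb (0.966). Hdac7 was nearest to Crtap, which acts on collagen (0.969), Syde1 (0.963) and Zbed3 (0.954). Hdac4 had no gene above 0.86, the value of Arhgap4, with Lsr at 0.841 and Dnahc1 at 0.837. Over the 7 deep libraries alone these values ranged from 0.874 (Lsr) to 0.997 (Usp28).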

How the data were processed

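RNA-seq was measured in 13 libraries of mouse primary myoblasts and myotubes, of ribosome-depleted RNA. The authors deposited 1 table of raw counts per gene and library, without normalisation; per the submitters' processing notes, TopHat2, HTSeq and the mm9 build were used. Not given in the sources used here are their versions, the annotation and whether strand was used.

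Samples were grouped by their labels. The 7 members and the pathway lists were chosen with earlier results of these data known. Counts were analysed in R 4.3.3 with edgeR 4.0.16. Its filterByExpr, set to the 4 groups with a minimum count of 10 and a minimum total of 15, kept 16537 genes. After TMM scaling, all 13 libraries entered 1 quasi-likelihood fit with a mean per group. Tests were two-sided, adjusted by Benjamini-Hochberg over all tested genes and called under 0.05. SE is the log2 fold change divided by the root of F. Values within a depth set come from 1 model with a mean for each of the 6 combinations of group and set, chosen after the data were seen, as was the fit without the 4 shallow wild-type libraries. Levels are CPM on TMM-adjusted totals, and log2 CPM used a prior count of 2. Library totals were 5.31 to 56.44 M counts, and the lowest member count was 27 (Hdac7 in wild-type myotube 5). Replicate pairs had a chi-square over its degrees of freedom of 4.67 to 369, so no 2 replicates were alike within sampling noise. DESeq2 1.42.0 and limma 3.58.1 (voom), other scalings, no filter, the depth set as a term, the replicate block and leaving out each library were alternatives. Scripts were tested on simulated counts, with changes put into 200 genes and read in wild-type differentiation. Of true changes of 1 on the log2 scale 2.06% were recovered, as were 50.5% of changes of 2, with 1 false call among 53 calls. Recovery in the other contrasts was not read. A member that was not called may therefore still have changed.

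Named are all 7 members, up to 3 called genes in each direction per pathway list in wild-type differentiation, the list genes called by genotype over all 13 libraries (up to 6 per contrast), and the 3 genes most correlated with each member; list genes named for genotype within a depth set were chosen after their values were seen. Marker lists cover muscle, fibroblasts, endothelium, macrophages, Schwann cells, smooth muscle, adipocytes and erythroid cells. Myoblast and satellite cell markers summed to 2410 to 8430 CPM across all 13 libraries.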

Additional observations from a re-analysis of the deposited data

How the results depend on the processing

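In wild-type differentiation, the 4 calls (Mef2a, Mef2c, Mef2d, Hdac9) were made under DESeq2, limma voom and the other scalings of edgeR as well; leaving out 1 library gave 3 to 5 called members, and fitting a depth set alone gave 3 (deep) and 5 (shallow, with Hdac7 lower). In dICR/dICR differentiation the count of 0 became 3 under DESeq2 (3.83% of genes higher), 3 with the depth set as a term (4.8%) and 3 without the 4 shallow wild-type libraries (8.53%), and 0 in every fit without 1 library. For genotype in myoblasts it became 4 in a fit of the shallow set alone and 1 within that set with the spread from all 13 libraries. For genotype in myotubes it ranged from 0 to 1 without 1 library, the 1 being Hdac7 without wild-type myotube 2.

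Some log2 fold changes that were not called changed sign. In wild-type differentiation Hdac4 was -0.14 by library totals alone. In dICR/dICR differentiation Hdac4 was 0.05 with no filter and 0.19 with the depth term, and Hdac7 was -1.11 with the depth term. For genotype in myoblasts, the depth term gave -0.01 (Hdac4) and 0.52 (Hdac7), the shallow set alone -0.06 and 0.45, and the shallow set with the spread of all 13 libraries -0.08 and 0.42; without the 4 shallow wild-type libraries Mef2c was 0.16 and Hdac5 0.11. For genotype in myotubes, Hdac4 was 0.03 by library totals alone, and Hdac5 was 0.02 with the depth term, 0.03 in the deep set alone, 0.04 there with the spread of all libraries and 0.02 without the 4 shallow wild-type libraries. In the difference between the changes, Hdac5 was 0.11 with no filter and 0.65 with the depth term, which also gave 0.21 for Mef2c and 0.01 for Hdac4, and Mef2a was -0.89 without the 4 shallow wild-type libraries. The cause of these changes was not tested.

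Leaving out 1 library moved Hdac4 in dICR/dICR differentiation between -0.75 and 0.39, Hdac7 for genotype in myoblasts between -0.63 and 0.02, and, for genotype in myotubes, Mef2d between -1.15 and 0.28 and Hdac4 between -0.78 and 0.36. The differences between the changes ranged from -0.22 to 0.13 for Hdac5, -0.90 to 0.24 for Hdac4 and -0.44 to 0.99 for Mef2d. Where only 1 dICR/dICR library was left in a group, it was assumed to vary like the others.

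Same-numbered libraries of the wild-type stages correlated in their deviations at 0.427, 0.518, -0.411 and 0.517 (replicates 1 to 4). Replicates 1, 2 and 4 had both stages in the same depth set, and replicate 3 did not. Pairing by number and depth set therefore cannot be told apart in wild type. The replicate block left the 4 wild-type calls and no other (18.5% of genes called), and gave sign changes for Hdac5 in myoblasts by genotype (0.01), for Hdac4 and Hdac5 in myotubes by genotype (0.01 and 0.15) and for Hdac5 in the difference (0.14). The dICR/dICR numbers correlated at -0.388; crossing them raised the block's calls from 100 to 575 genes, with 0 members in both. Scaling by library totals alone shifted the median log2 value of all genes by -0.27 and -0.29 in the 2 differentiation contrasts and by 0.15 and 0.13 in the genotype ones; DESeq2 factors shifted it by -0.13 in dICR/dICR differentiation and -0.17 in the difference, and no filter by 0.12 and 0.14. Depth limits Hdac7 and Hdac9 most, with 27 and 31 counts in the libraries with least of each (wild-type myotube 5 and dICR/dICR myoblast 2). The other limits are the 2 libraries per dICR/dICR group and the split of dICR/dICR stages between the depth sets.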
